A study of Mus musculus with 6 samples.

Results

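Sp7, Sox9 and Pdpn are genes of the skeletal lineages, and their level and their change with fluid flow and time were followed here on 6 microarrays of mouse osteoblastic cells. Sp7, also called osterix, is a zinc finger transcription factor that mouse embryos need to form osteoblasts, and it acts downstream of Runx2. Sox9 is a transcription factor with a high mobility group domain that specifies chondrocytes, marks skeletal progenitors and drives cartilage matrix genes such as Col2a1 and Acan. Pdpn encodes podoplanin, also called E11 or gp38, a mucin-type membrane glycoprotein of young osteocytes that binds ezrin and moesin and acts on the actin cytoskeleton. It is also a known marker of lymphatic endothelium.

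The genes were chosen by name, with earlier results of these data known. All their probes in the deposited log2 table were used: 5 probes of 15686, for 3 genes of 8565. Sp7 had 2 probes (ILMN_2733114, the brighter, and ILMN_1231074, the dimmer), Sox9 had 2 (ILMN_2778151, the brighter, and ILMN_3007428, the dimmer) and Pdpn had 1 (ILMN_2654754). The cells were MC3T3-E1, a mouse calvarial line, of which the study used clone 14. Flow was made by orbital shaking of culture plates. In the rest-inserted flow group the hour held 4 bouts of 5 min of flow, each with 10 min of rest after it. In the continuous flow group the plates were shaken for the whole hour, and in the no flow group they were not shaken. RNA was taken 1 h after the flow period or at its end (0 h), which gave 6 conditions with 1 array each. Each array carried RNA pooled from 3 experiments, so no condition had a replicate array and the spread between experiments could not be measured. In such pooled bulk RNA, fewer cells of a type and less RNA per cell cannot be told apart. The study asked how rest periods alter the response of bone cells to flow, and the comparisons below put the flows against no flow, the flows against each other and 1 h against 0 h.

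Over the 5 arrays with usable detection p-values, 13472 to 14426 of the 45281 probes were detected, with a median signal of 105 to 123 intensity units among them. Of 9 osteoblast markers 6 had a probe in the table. Col1a1 and Sparc, which encode type I collagen and osteonectin, were bright, with mean log2 signals of 12.15 and 13.25. Ibsp, bone sialoprotein, was dim at 5.48, and Alpl, the alkaline phosphatase of mineralizing osteoblasts, was detected on 2 of 6 arrays. Runx2, Bglap and Spp1 were not analysed here. Col2a1, the cartilage collagen, was bright at 10.05, while Col11a2 was detected on 1 array. Of 12 chondrocyte markers these 2 and Sox9 were in the table, and the other 9, Acan among them, were not analysed here. Of 5 tenocyte markers 3 (Scx, Mkx and Tnc) were in the table and detected on all 6 arrays. Pdpn was the one osteocyte marker of 6 in the table, which holds only probes detected on 1 or more arrays. Of the 4 lymphatic endothelium and 4 vascular endothelium markers 0 were in the table.

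All 5 probes were detected on all 6 arrays, and Sox9 and Pdpn lay near the top of the signal range. The mean log2 signal of the brighter Sox9 probe was 11.70, a place at the 97.5th percentile of the 15686 probes, with 394 probes brighter. Pdpn averaged 11.35 on the log2 scale, at the 96.7th percentile, with 509 probes brighter. The brighter Sp7 probe averaged 7.996 on the log2 scale, at the 71.7th percentile, with 4436 probes brighter. Taking each gene by its brightest probe, 230 of 8565 genes were brighter than Sox9, 312 were brighter than Pdpn and 3083 were brighter than Sp7. The dimmer probes lay lower, at 7.65 and the 67.1st percentile for Sox9 and at 6.31 and the 47.8th percentile for Sp7. The brighter and the dimmer probe of Sox9 differed by 3.96 to 4.30 log2 units on the same arrays, and those of Sp7 by 1.62 to 1.78. A place among the probes is therefore one of signal, which depends on the probe as well as on the transcript, and the signals of different genes were not compared as amounts of RNA.

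**Figure D1:**
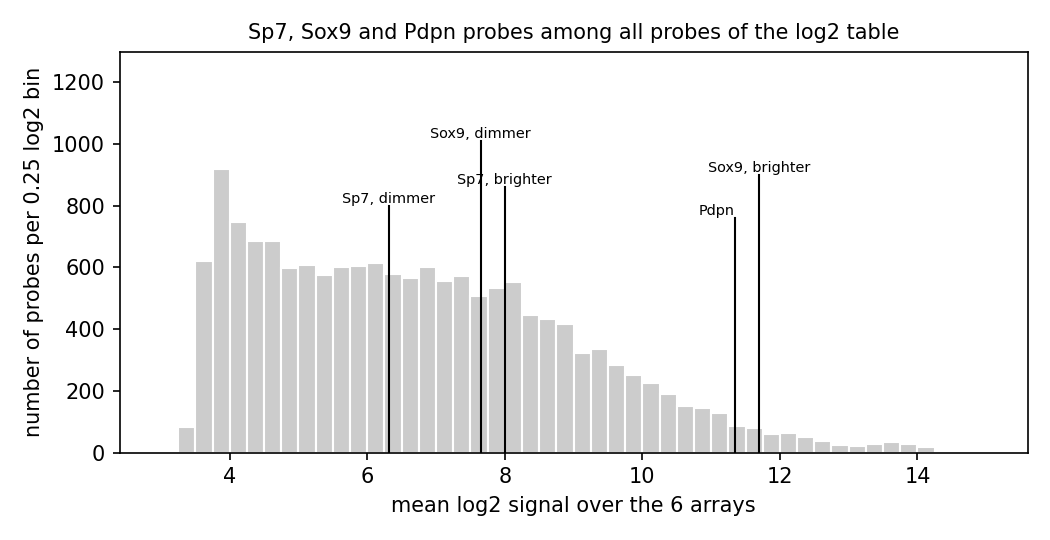
Number of probes (y axis) per bin of 0.25 in mean log2 signal over the 6 arrays (x axis), for the 15686 probes of the log2 table, with a vertical line at each probe of Sp7, Sox9 and Pdpn (line height has no meaning). The brighter Sox9 probe at 11.70 and Pdpn at 11.35 lie in the right tail, and the Sp7 probes at 7.996 and 6.31 lie in the body of the distribution.

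The brighter Sp7 probe spanned 0.32 log2 units from its lowest to its highest array, a 1.25-fold range. The brighter Sox9 probe spanned 0.21 log2 units (1.16-fold) and Pdpn 0.25 (1.19-fold), while the dimmer Sox9 probe spanned 0.36 (1.28-fold). Beside the other probes of its signal decile, the standard deviation over the 6 arrays lay at the 85.3rd percentile for the brighter Sp7 probe and the 34.3rd for the dimmer one. It lay at the 69.9th and the 87.4th for the brighter and dimmer Sox9 probes and at the 87.4th for Pdpn. No probe of the 3 genes was called in any comparison. In limma, fitted over all 6 arrays with flow and time as additive terms and adjusted by Benjamini-Hochberg over all probes, 0 of 15686 probes (0%) had an adjusted p under 0.05 in each of the 5 comparisons. At an unadjusted p under 0.05 there were 848 probes (5.41%) for rest-inserted flow minus no flow, 960 (6.12%) for continuous flow minus no flow and 958 (6.11%) for the mean of both flows minus no flow. There were 758 (4.83%) for rest-inserted minus continuous flow and 1576 (10.0%) for 1 h minus 0 h. Of the 5 probes of Sp7, Sox9 and Pdpn, 1 was among these, Pdpn for 1 h minus 0 h. With a variance prior that follows the signal (the intensity trend of limma), 380 probes (2.42%) were called for 1 h minus 0 h at an adjusted p under 0.05, and Pdpn was again the 1 probe of the 5 among them.

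**Figure D2:**
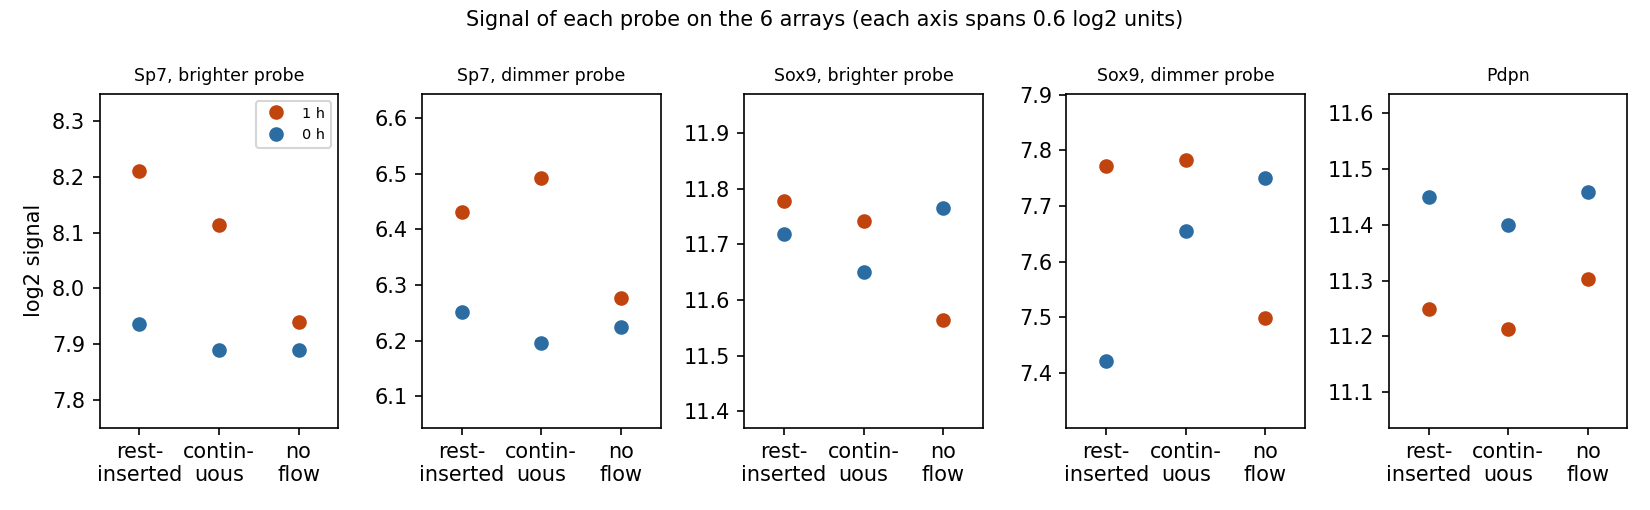
Log2 signal (y axis) of the 5 probes under rest-inserted flow, continuous flow and no flow (x axis), with 1 point per array at 1 h (orange) and at 0 h (blue) and every y axis spanning 0.6 log2 units. Both Sp7 probes are higher at 1 h than at 0 h and Pdpn is lower at 1 h under each flow condition, while the order of the times for Sox9 differs between flow and no flow.

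Pdpn was lower at 1 h than at 0 h under every flow condition, by nearly the same amount. At 1 h its log2 signal was 11.25 with rest-inserted flow, 11.21 with continuous flow and 11.30 with no flow. At 0 h it was 11.45 with rest-inserted flow, 11.40 with continuous flow and 11.46 with no flow. All 3 arrays of 1 h lay below all 3 of 0 h, a pattern that 1421 of the 15686 probes (9.06%) shared. The background-subtracted signal averaged 2424 intensity units at 1 h and 2791 at 0 h. The log2 difference of 1 h minus 0 h was −0.20 with rest-inserted flow, −0.19 with continuous flow and −0.16 with no flow. The fit gave −0.18 (SE 0.065, 95% confidence interval −0.36 to −0.0040, 0.882-fold), with an adjusted p of 0.493 in limma. Of the 1569 probes of the brightest decile, which held Pdpn, 4.65% had a time difference at least as large in size. With the intensity trend the adjusted p was 0.0299, and leaving out any 1 of the 6 arrays ended that call, with an adjusted p of 0.139 to 0.478. The fitted difference then stayed at −0.19 to −0.17. Each such fit kept 1 residual degree of freedom in place of 2, so the loss of the call cannot be told apart from that loss of precision. An exact two-sided permutation test of the 6 arrays between the times gave p = 0.1, the smallest that 3 against 3 arrays allow. That value follows from the separation of the times and adds nothing to it.

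Pdpn differed little with flow. At 1 h it was lower by 0.054 log2 units with rest-inserted flow and by 0.089 with continuous flow than with no flow. At 0 h the differences were −0.0090 for rest-inserted flow and −0.058 for continuous flow minus no flow. All 4 flow arrays thus lay below the no flow array of their time, as did those of 1947 of 15686 probes (12.4%). The fitted differences were −0.032 for rest-inserted flow and −0.074 for continuous flow minus no flow, with adjusted p = 0.988 and 0.949 in limma. Their 95% confidence intervals ran from −0.25 to 0.19 and from −0.29 to 0.14. With array median scaling the differences were −0.081 and −0.11, and without the no flow array of 1 h that of rest-inserted flow was −0.013. Rest-inserted minus continuous flow was 0.042, with an adjusted p of 1.

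Sp7 was higher at 1 h than at 0 h under each flow condition. At 1 h the log2 signal of its brighter probe was 8.21 with rest-inserted flow, 8.11 with continuous flow and 7.94 with no flow. At 0 h it was 7.94 with rest-inserted flow, 7.89 with continuous flow and 7.89 with no flow. All 3 arrays of 1 h lay above all 3 of 0 h, as they did for 1411 of 15686 probes (9.0%), although the no flow array at 1 h (7.939) was barely above the rest-inserted flow array at 0 h (7.936). In the background-subtracted signal, before normalization, the times overlapped. There the no flow array of 1 h (238 intensity units) lay below the rest-inserted (251) and continuous flow (245) arrays of 0 h. The difference of 1 h minus 0 h was 0.27 with rest-inserted flow, 0.22 with continuous flow and 0.050 with no flow. The fit over the flow conditions gave 0.18 (SE 0.080, 95% confidence interval −0.036 to 0.40), with an adjusted p of 0.540 in limma and of 0.217 with the intensity trend. The exact two-sided permutation test gave p = 0.1, again the smallest possible and again fixed by the separation of the log2 values. A term for any flow by time, added to the limma model and leaving 1 residual degree of freedom, gave 0.20 for the flow minus no flow difference at 1 h over that at 0 h (SE 0.15, 95% confidence interval −0.26 to 0.66). Its adjusted p was 0.851, and 0.816 with the intensity trend. With this term 0 of 15686 probes (0%) were called, 1167 (7.44%) had an unadjusted p under 0.05, among them 0 of the 5 probes, and the intensity trend called 5 probes.

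The dimmer Sp7 probe showed the same order of the times. At 1 h its log2 signal was 6.43 with rest-inserted flow, 6.49 with continuous flow and 6.28 with no flow. At 0 h it was 6.25 with rest-inserted flow, 6.20 with continuous flow and 6.23 with no flow. Its 3 arrays of 1 h also lay above its 3 of 0 h, and its fitted difference of 1 h minus 0 h was 0.18, with an adjusted p of 0.559 in limma. In the background-subtracted signal its times overlapped too. No flow at 1 h (74.5) lay below rest-inserted (78.9) and continuous flow (75.7) at 0 h. Both probes report the same gene on the same 6 arrays and are not independent samples of it.

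With flow, Sp7 stood above no flow at 1 h and close to it at 0 h. The brighter probe was higher by 0.27 log2 units with rest-inserted flow and by 0.17 with continuous flow at 1 h. At 0 h the differences were 0.047 for rest-inserted flow and 0.00 for continuous flow. As a measure of the spread of single array pairs, 22.1% of all probes had a difference of at least 0.27 in size between the rest-inserted flow and no flow arrays of 1 h. The fit over both times gave 0.16 for rest-inserted flow minus no flow (SE 0.098, adjusted p = 0.929 in limma) and 0.087 for continuous flow minus no flow (adjusted p = 0.951). The 95% confidence intervals were −0.11 to 0.43 and −0.18 to 0.36. Without the no flow array of 1 h the values were 0.060 for rest-inserted and −0.012 for continuous flow, and without that of 0 h they were 0.26 and 0.19. Of the 2 Sp7 probes, 0 had all 4 flow arrays above the no flow array of their time, a pattern of 1801 of 15686 probes (11.5%). For the brighter probe this rests on a tie of the continuous and no flow arrays of 0 h. In the background-subtracted signal, before normalization, both probes had all 4 flow arrays above. With continuous flow at 0 h these signals were 245 against 232 and 75.7 against 73.7. The share of all probes with that pattern before normalization was not counted. Rest-inserted minus continuous flow was 0.072 for the brighter probe and −0.0024 for the dimmer one, both with an adjusted p of 1.

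**Figure D3:**
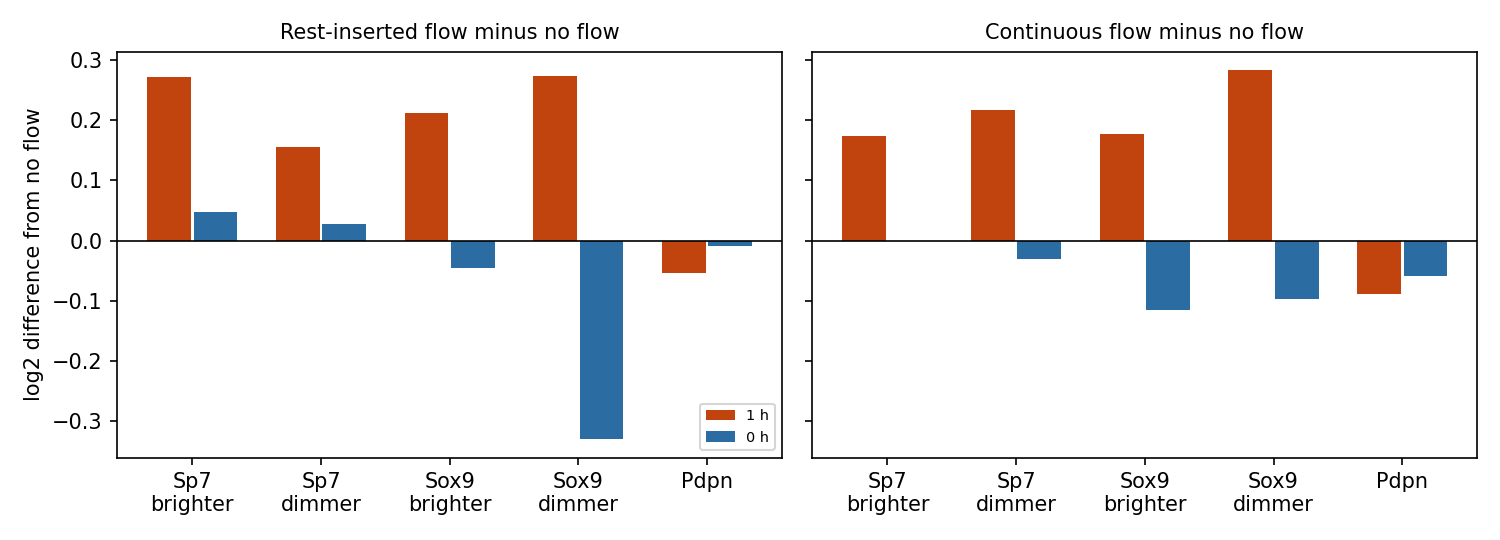
Log2 difference (y axis) of rest-inserted flow minus no flow (left) and of continuous flow minus no flow (right) for each probe (x axis), with 1 array on each side of a difference, at 1 h (orange) and at 0 h (blue). The Sox9 bars stand above 0 at 1 h and below 0 at 0 h for both probes and both flows, and the brighter Sp7 probe has no bar for continuous flow at 0 h because its difference is 0.00.

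Sox9 was higher with flow than with no flow at 1 h and lower at 0 h, on both probes. At 1 h the log2 signal of the brighter probe was 11.78 with rest-inserted flow, 11.74 with continuous flow and 11.56 with no flow. At 0 h it was 11.72 with rest-inserted flow, 11.65 with continuous flow and 11.77 with no flow. The no flow array of 1 h was the lowest of the 6, and the flow and no flow arrays overlapped. At 1 h the difference from no flow was 0.21 for rest-inserted flow and 0.18 for continuous flow. At 0 h it was −0.046 for rest-inserted flow and −0.12 for continuous flow. As a measure of the spread of single array pairs, 29.1% of all probes differed at least as much in size with rest-inserted flow at 1 h. With continuous flow at 1 h the share was 38.4%, and at 0 h the shares were 80.5% for rest-inserted and 54.7% for continuous flow. At each time both flows were set against the same no flow array, so their shared sign is not independent. How many probes of the table change side between the times in this way was not counted. The dimmer probe differed in the same directions, by 0.27 and 0.28 at 1 h and by −0.33 and −0.096 at 0 h for rest-inserted and for continuous flow. Its signal on the no flow array of 1 h, 7.50, was not its lowest, since the rest-inserted flow array of 0 h was at 7.42. As for Sp7, both probes were read on the same 6 arrays and are not independent samples of the gene.

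The 2 times thus had opposite signs. For the brighter Sox9 probe the fit gave 0.083 for rest-inserted flow minus no flow (SE 0.11, adjusted p = 0.973 in limma) and 0.031 for continuous flow minus no flow (adjusted p = 0.989, and −0.0013 with array median scaling). Without the no flow array of 1 h they turned to −0.055 and −0.11. The difference of 1 h minus 0 h was −0.20 with no flow, 0.058 with rest-inserted flow and 0.092 with continuous flow, and the fit gave −0.017 (SE 0.091, adjusted p = 0.967, and 0.016 with array median scaling). Rest-inserted minus continuous flow was 0.052 for the brighter probe and −0.12 for the dimmer one, both with an adjusted p of 1. The term for any flow by time was 0.28 for the brighter probe (SE 0.14, adjusted p = 0.788 in limma, 0.675 with the intensity trend) and 0.49 for the dimmer one (SE 0.18, adjusted p = 0.699 and 0.675). The residual standard deviation of the brighter Sox9 probe around the additive fit was 0.11 log2 units, against 0.016 for Pdpn. The brighter and dimmer probes had the same sign in 2 of 5 fitted comparisons for Sox9 and in 4 of 5 for Sp7.

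A list of genes upstream of Sp7, its partners and osteoblast genes had 21 of its 37 members in the table. For 1 h minus 0 h, 0 of the 21 were called at an adjusted p under 0.05, 6 were lower and 0 higher at an unadjusted p under 0.05, and the median was −0.11 on the log2 scale. Over all 8565 genes, 478 were lower and 337 higher at that level, with a median of 0.0022. The 6 genes, named after their values were seen, were Mmp13 (−0.72, a collagenase of late osteoblasts), Fmod (−0.68, the matrix proteoglycan fibromodulin), Bmp4 (−0.46, a ligand that induces bone), Ibsp (−0.31), Msx1 (−0.30) and Twist1 (−0.29), both transcription factors of early skeletal cells. Bmp4 had log2 signals of 9.50, 9.30 and 9.66 at 1 h with rest-inserted, continuous and no flow, against 9.88, 9.88 and 10.09 at 0 h. Its arrays did not overlap between the times. In 9 of the 21 members all 3 arrays of 1 h lay below all 3 of 0 h, and in 1 all lay above. Over all genes these counts were 843 and 820 of 8565. For Bmp4 the mean of both flows minus no flow was −0.24, with an adjusted p of 0.805 in limma. The bright members Col1a1, Sparc, Col1a2 and Col5a1 had time differences of −0.23, −0.11, −0.021 and −0.013, with an adjusted p of 0.506 or more in limma. Gja1 (a connexin of gap junctions), Cbfb (the partner of Runx2) and Atf4 had time differences of 0.062, 0.094 and 0.016. Alpl, detected on 2 of 6 arrays, had 0.13 (SE 0.29), with its no flow array of 0 h at the floor of the table (3.32). Under flow it was lower at 1 h, at 3.91 against 4.03 with rest-inserted and 3.75 against 4.18 with continuous flow. The direction of Sp7 was opposite to that of the 6 genes, which were picked by their unadjusted p. Of the 21 measured members, 8 had a time difference above 0, as Sp7 had, against 4349 of all 8565 genes. Without Sp7 itself, the summed normalized signal of the osteoblast markers was 14959 to 15406 at 1 h and 15527 to 17465 at 0 h, and its part in the differences was not tested.

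A list of Sox9 partners, regulators, cofactors and cartilage genes had 31 of its 51 members in the table. For 1 h minus 0 h, 0 were called, 2 were higher and 2 lower at an unadjusted p under 0.05 (12.9% of the 31, against 9.52% of all genes), and the median was −0.051. The log2 signal of Col2a1 was 10.27 with rest-inserted flow, 10.36 with continuous flow and 10.35 with no flow at 1 h. At 0 h it was 9.82 with rest-inserted flow, 9.80 with continuous flow and 9.68 with no flow. Its 3 arrays of 1 h lay above those of 0 h, with a fitted difference of 0.56 (SE 0.078, adjusted p = 0.337 in limma). That order held for 3 of the 31 members and the reverse for 5, against 820 and 843 of all 8565 genes. The Sox9 probes separated the times in neither direction. The other 3 genes were Cspg4 (0.42, the proteoglycan NG2), Matn4 (−0.72, the matrix protein matrilin 4) and Sox5 (−0.28, a Sox9 partner in chondrocytes). For the mean of both flows minus no flow, 2 of 31 were higher at an unadjusted p under 0.05, Cspg4 (0.32) and Wwp2 (0.27, a ubiquitin ligase that binds Sox9), and 0 were lower, against 206 and 210 of all 8565 genes. For continuous flow minus no flow 3 were higher and 2 lower, against 215 and 217 of all genes. The higher ones were Ccn2 (1.10, SE 0.38), a matricellular gene induced by mechanical load, Cspg4 (0.32) and Wwp2 (0.32). The lower ones were Fgfr1 (−0.43), a fibroblast growth factor receptor, and Matn4 (−0.26). Ccn2 was at 10.48 with continuous and 10.13 with no flow at 1 h, against 11.90 and 10.04 at 0 h, so its times were unlike. Fgfr1 was dim, with a mean log2 signal of 4.35, and was detected on 5 of 6 arrays. For rest-inserted flow minus no flow 1 was higher, Cspg4 (0.31), and 0 were lower. Cspg4, Wwp2 and Fgfr1 were named after their values were seen. The bright regulators and cofactors Fgfr2, Ctnnb1, Prkaca, Med25, Gli3 and Sox11 had time differences between −0.17 and 0.097. Without Sox9 itself, the summed normalized signal of the chondrocyte markers (Col2a1 and Col11a2) was 1245 to 1332 at 1 h and 833 to 925 at 0 h. With Col11a2 at a mean log2 signal of 3.76, near the floor, this sum is in effect the signal of Col2a1 again. Its part in the Sox9 values was not tested.

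**Figure D4:**
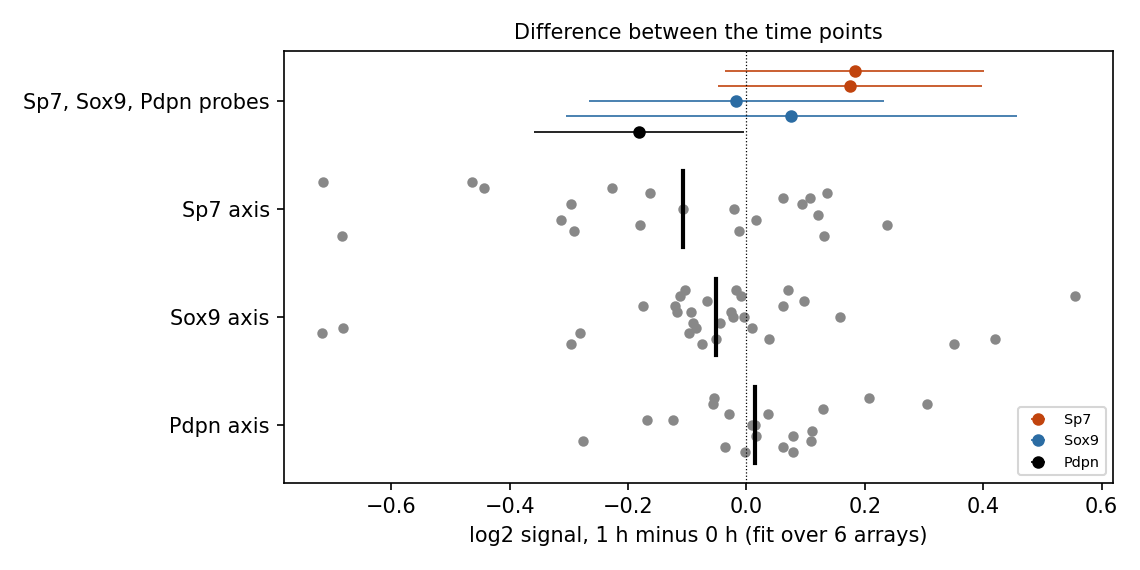
Log2 difference of 1 h minus 0 h from the fit over the 6 arrays (x axis), for the 5 probes with 95% confidence intervals (top row, in the order brighter and dimmer Sp7, brighter and dimmer Sox9, Pdpn) and for the measured genes of the 3 lists (grey points, each a gene, spread vertically for display, with a bar at the median). The medians are −0.11 for the Sp7 list, −0.051 for the Sox9 list and 0.015 for the Pdpn list.

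A list of podoplanin partners, actin cytoskeleton genes and osteocyte genes had 20 of its 34 members in the table, all detected on all 6 arrays. For 1 h minus 0 h, 0 were called, 2 were higher and 1 lower at an unadjusted p under 0.05 (15% of the 20, against 9.52% of all genes), and the median was 0.015. The higher ones were Msn (0.21), the podoplanin-binding linker moesin, and Cfl1 (0.30), the actin-severing protein cofilin. The lower one was Mylk (−0.28), myosin light chain kinase. Cfl1 and Mylk were named after their values were seen. Msn had log2 signals of 8.87, 8.89 and 8.77 at 1 h with rest-inserted, continuous and no flow, against 8.67, 8.75 and 8.48 at 0 h, and the times did not overlap. Cd44, a hyaluronan receptor that associates with podoplanin, had a time difference of 0.016. Among the other bright members, Lgals3, Hspa9, Cxcl12, Mmp14 and Gja1 had time differences of 0.014 to 0.13, and Myl9 and Cd9 of −0.17 and −0.12. For the mean of both flows minus no flow, 15 of 20 were above 0, with a median of 0.071 and a range of −0.085 to 0.17, and 0 had an unadjusted p under 0.05. Of all 8565 genes, 4187 were above 0, with a median of −0.0023. In 8 of the 20 all 4 flow arrays stood above the no flow array of their time, and in 0 all stood below. Over all genes these counts were 1017 and 1081 of 8565. Pdpn itself was on the other side, with all 4 flow arrays below. Ezr, Dmp1 and Phex, like Dlx5, Sox6 and Acan of the other lists, were not analysed here.

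The genes with the most similar profile over the 6 arrays were found by Pearson's correlation with the brighter or single probe among 10726 probes, as a description. For Pdpn they were Ccdc181 (r = 0.996), Nnmt (0.995), an enzyme that methylates nicotinamide, and Matn4 (0.993). For Sp7 they were Bop1 (r = 0.985) of ribosome biogenesis, the carnitine transporter Slc22a5 (0.978) and Eif2s2 (0.977), a subunit of a translation initiation factor. For Sox9 they were Vps36 (r = 0.980) of endosomal sorting, Umps (0.978) of pyrimidine synthesis and Smad3 (0.974), a transducer of TGF-beta signals. A correlation of 0.95 or more was shared by 74 probes for Pdpn, 19 for Sp7 and 12 for Sox9. With 6 points that share the same arrays and pools, many probes correlate highly. Matn4, with the same order of the times as Pdpn, differed by −0.72 between 1 h and 0 h, against −0.18 for Pdpn.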

How the data were processed

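RNA from 6 conditions, each pooled from 3 experiments, was hybridized to Illumina MouseWG-6 v2.0 arrays, and no array was left out. The deposited intensity values had the background subtracted by the authors in GenomeStudio (version not given in the sources used here). The deposited detection p-value was given for 5 arrays. On the rest-inserted flow 1 h array this column becomes a copy of the signal after probe 20000, for 25281 probes, so detection there was taken as a signal of at least 19.52, the highest boundary of the other arrays. To make the deposited log2 values the authors ran quantile normalization, raised signals below 10 to that floor, took logarithms and kept probes with a detection p under 0.01 on 1 or more arrays. Repeating this from the intensities gave the same values within 5.0e-08.

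Probe symbols came from the platform annotation: 13393 probes had 1 symbol, 8 several and 2285 none. Genes in lists were taken by their brightest probe. The fit used limma 3.58.1 in R 4.3.3 (lmFit, eBayes, constant variance prior, flow plus time, Benjamini-Hochberg over 15686 probes) and was tested on simulated data. A flow difference that changes between the times enters its residual, beside the noise of the arrays. P-values measure the spread between these arrays only, with the variance of each probe drawn toward a prior taken from all probes. That prior had 2.11 degrees of freedom, or 25.2 with the intensity trend, beside 2 residual ones. Pdpn had a residual standard deviation of 0.016, so its SE of 0.065 for 1 h minus 0 h rests mostly on the spread of other probes. The alternatives were array median scaling, an offset of 16 in place of the floor, other probe filters, the intensity trend, models without the time or flow term, and leaving out each array, and a term for any flow by time was added after seeing the data. Named were all probes of the 3 genes, the 3 most similar profiles of each, the 8 brightest genes of each list and a set of key regulators and markers, and any other gene is marked in the text as chosen with its value known. The genes and lists were chosen with earlier results of these data known.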

Additional observations from a re-analysis of the deposited data

Results flagged for a closer look

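Sox9 was marked because both flow arrays lay on opposite sides of the no flow array at the 2 times. The mean of both flows minus no flow was 0.19 on the log2 scale at 1 h and −0.081 at 0 h for the brighter probe. It was 0.28 at 1 h and −0.21 at 0 h for the dimmer probe. In limma with a term for any flow by time the difference between the times was 0.28 for the brighter and 0.49 for the dimmer probe, with adjusted p = 0.788 and 0.699. Each value rests on a single no flow array, and the share of all probes with such a change of side was not counted. No group held enough arrays to look for a single array standing apart.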

How the results depend on the processing

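The counts of probes called at an adjusted p under 0.05 were 0 under the main settings. With the intensity trend they were 6 for continuous flow minus no flow, 6 for the mean of both flows and 380 for 1 h minus 0 h, and without the flow term 1 for 1 h minus 0 h. Pdpn at −0.18 for 1 h minus 0 h passed the threshold with the trend (adjusted p = 0.0299). Leaving out 1 array with the trend, chosen after seeing the data, gave 13 to 113 probes and −0.19 to −0.17 for Pdpn, no longer called. Under array median scaling Sox9 turned to −0.0013 for continuous flow minus no flow and to 0.016 for 1 h minus 0 h. Leaving out 1 array moved Sox9 between −0.055 and 0.22 for rest-inserted flow minus no flow, −0.11 and 0.17 for continuous flow, −0.081 and 0.19 for the mean of both flows, −0.030 and 0.13 for rest-inserted minus continuous flow, and −0.071 and 0.075 for 1 h minus 0 h. Sp7 moved between −0.012 and 0.19 for continuous flow minus no flow, negative without the no flow array of 1 h, and between 0.060 and 0.26 for rest-inserted flow minus no flow. The time differences of Sp7 and Pdpn kept their direction under each alternative. Among all 45281 probes the places in percentiles were 90.2 for Sp7, 99.1 for Sox9 and 98.9 for Pdpn, and among genes 64.0, 97.3 and 96.3. The causes were not tested. The number of arrays limits the precision.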
